A study of Mus musculus with 18 samples.

Results

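The genes of bile acid synthesis and transport were followed in the livers of control and hypothyroid juvenile mice: 10 of the 16535 genes that could be matched on the arrays. They were chosen by name, as the enzymes that make bile acids (Cyp7a1, Cyp7b1, Cyp8b1, Cyp27a1 and Baat), the transporters that carry bile acids and phospholipid into and out of the hepatocyte (Slc10a1, Abcb11 and Abcb4), and a pair of nuclear receptors that control them (Nr1h4 and Nr0b2). All 10 were measured, by 13 probes, since Cyp7a1, Baat and Abcb4 had 2 probes each. The study asked whether thyroid hormone regulates microRNAs (miRNAs) in liver, and it used mRNA arrays to look for targets of these miRNAs. Liver RNA of 5 control and 5 hypothyroid C57BL/6 male pups was taken on postnatal day 15. The hypothyroid pups came from dams that drank sugar water with 0.05% methimazole (MMI, which blocks thyroid hormone synthesis) and 1% perchlorate (which blocks iodide uptake) from postnatal day 12, and the dams of the control pups drank sugar water without them. The litters shared the water of their dams for a few days only, and 1 pup was taken from each litter. By the methods of the paper, control and hypothyroid pups alike were injected with PBS (buffered saline) some hours before sacrifice. Each liver was hybridized to a 2-colour oligonucleotide array against a commercial universal mouse reference RNA, and values are given as the log2 ratio of liver to reference. A ratio sets 1 probe against the reference, so that ratios of different genes do not rank their levels.

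Bile acids are made from cholesterol in hepatocytes. In the classic route CYP7A1 carries out the rate-limiting 7-alpha-hydroxylation, and CYP8B1 adds the 12-alpha-hydroxyl group that makes cholic acid. In the alternative route CYP27A1 oxidizes the side chain and CYP7B1 hydroxylates the oxysterols. BAAT then joins bile acids to taurine or glycine, ABCB11 (the bile salt export pump) secretes them into bile, ABCB4 supplies phospholipid to bile, and SLC10A1 takes bile acids back up from blood. NR1H4 (FXR) senses bile acids and induces Nr0b2 (SHP), a repressor of Cyp7a1 and Cyp8b1, as well as Abcb11. Thyroid hormone is known as an inducer of Cyp7a1 in rodents.

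Thyroid hormone receptors and FXR, each paired with RXR, bind repeats of the half-site AGGTCA, so the promoters of the genes were searched for these letters on both strands. RefSeq (GRCm38.p6) windows of 300 bases, from 250 before to 50 after the start site, were at hand for 7 of the 10 genes, and 3 genes held the half-site. The same letters occurred in 16.3% of all 32851 windows. This share counts windows, whereas a gene was counted if any of its windows held the half-site. The windows that hold it are shown 5′ to 3′ on the strand of the gene, with the half-site in capitals. They lie at chr2:69342567-69342866 (Abcb11, minus strand), chr10:89506609-89506908 (Nr1h4, minus strand) and chr12:80968030-80968329 (1 of the 2 Slc10a1 windows, minus strand).
Abcb11: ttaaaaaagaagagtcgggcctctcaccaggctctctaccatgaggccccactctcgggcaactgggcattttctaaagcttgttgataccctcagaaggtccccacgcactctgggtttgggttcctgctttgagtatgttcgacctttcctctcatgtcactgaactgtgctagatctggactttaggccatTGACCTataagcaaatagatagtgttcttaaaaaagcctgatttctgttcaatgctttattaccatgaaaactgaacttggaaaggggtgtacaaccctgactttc
Nr1h4: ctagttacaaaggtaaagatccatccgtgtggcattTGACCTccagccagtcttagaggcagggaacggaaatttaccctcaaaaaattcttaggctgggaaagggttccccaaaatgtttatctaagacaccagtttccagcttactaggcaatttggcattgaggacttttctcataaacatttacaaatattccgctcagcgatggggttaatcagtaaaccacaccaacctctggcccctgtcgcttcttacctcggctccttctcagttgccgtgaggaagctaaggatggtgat
Slc10a1: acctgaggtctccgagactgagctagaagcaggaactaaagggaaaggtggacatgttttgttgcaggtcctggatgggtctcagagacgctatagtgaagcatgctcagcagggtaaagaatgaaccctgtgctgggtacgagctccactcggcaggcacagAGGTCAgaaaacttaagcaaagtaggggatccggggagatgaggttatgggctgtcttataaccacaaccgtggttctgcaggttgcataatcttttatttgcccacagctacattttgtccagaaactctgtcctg
The half-site was read as TGACCT, its reverse complement, in Abcb11 and Nr1h4, and as AGGTCA in Slc10a1. A match of 6 letters describes the sequence only.

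Some arrays need to be known before the values are read. The slide of control 832 and hypothyroid 576 had ratios turned against all others (r of -0.97 and -0.98 with the dyes as labelled), so liver and reference channels were exchanged there. Each array was then set against the average over the remaining slides, and r was 0.97 to 0.99 for all arrays other than control 616. For control 616 r was 0.88, and the interquartile range of its ratios was 0.52 against 0.60 to 0.80 on the others. Between 75.9% and 85.4% of the probes were above background on an array. The 10 hepatocyte markers tested averaged 2.49 on control 616, 4.09 to 4.70 on the other controls and 4.24 to 4.82 on the hypothyroid arrays. Markers of the exocrine pancreas (18 genes) averaged 3.74 on control 832, 3.80 on control 522 and 2.20 on control 616, whereas the 2 remaining controls lay at 0.60 and 0.65 and the hypothyroid arrays between 0.54 and 0.65. Bile duct markers (10 genes) averaged -0.92 to -0.11 in the controls, the highest of them on control 616, and -0.96 to -0.88 in the hypothyroid livers. Lists of other cell types shifted on control 616 too. Kupffer cell markers averaged 2.45 there and 3.01 to 3.40 on the other controls, and skeletal muscle markers -0.42 against -1.13 to -0.79. Sinusoidal endothelium, erythroid and small intestine markers were lowest on it as well. Apart from exocrine pancreas, every list had its mean of smallest size on control 616. All of these values move with single control arrays, and their part in the results was not tested. In bulk liver RNA, fewer cells of a type and less RNA per cell cannot be told apart. For control 616 the array itself was unlike the others as well. The same reference RNA was used on every array, yet its raw signal for Abcb11 was 2790.5 on control 616. On the other arrays with channels as labelled it was 414 to 687. For Nr0b2 the reference signal was lower on control 616, at 41.5 against 67.5 to 102. The cause was not tested. Among genes known to depend on thyroid hormone, Me1 (malic enzyme) had a log2 difference, hypothyroid minus control, of -0.47, Thrsp of -1.16 and Dio1 of -0.94, with adjusted p of 0.272, 0.344 and 0.605 in limma. Without control 616 the differences were -0.44, -1.38 and -1.27, with adjusted p of 0.222, 0.0752 and 0.0607 in limma.

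**Figure D1:**
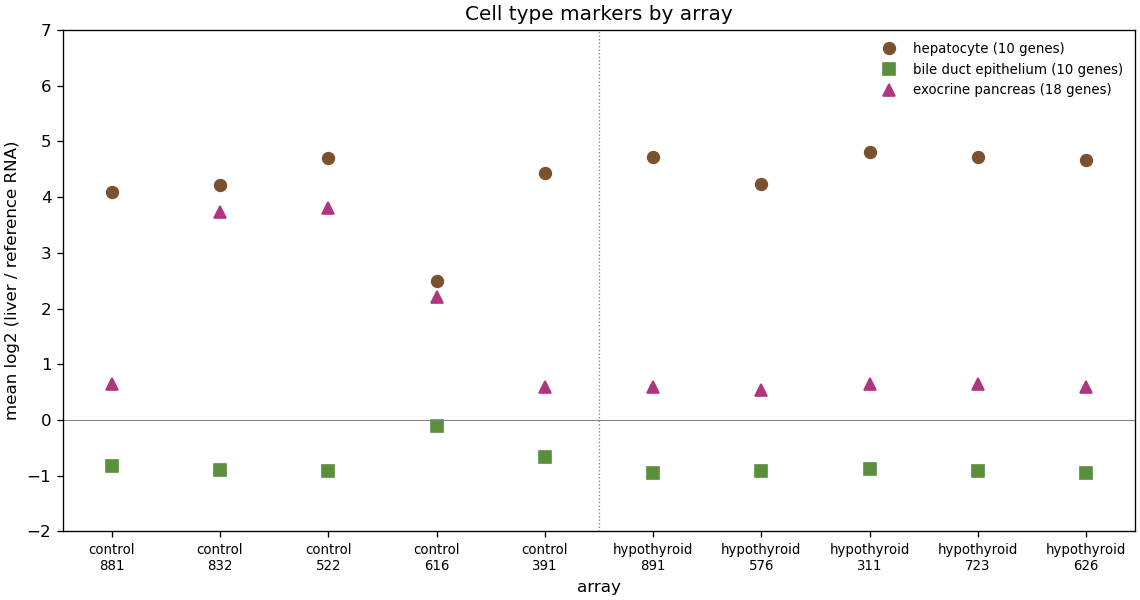
Mean log2 ratio of liver to reference RNA (vertical axis) of hepatocyte, bile duct and exocrine pancreas markers on each of the 10 arrays (horizontal axis). Control 616 has the lowest hepatocyte mean, 2.49, and pancreas markers stand high on controls 832, 522 and 616 and near 0.6 on the rest.

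None of the 10 bile acid genes passed an adjusted p of 0.05 in limma, and adjusted p ranged from 0.712 for Nr0b2 to 0.989 for Cyp7b1. Across the array 3 of 32056 probes passed, or 0.00936%. On their brightest probes 8 genes had a higher and 2 a lower mean in the hypothyroid livers, none had an unadjusted p under 0.05, against 7.47% of all probes, and in none were the groups apart, against 2.07% of all probes. The median difference of the 10 genes was 0.17, beside -0.0097 for all probes tested. Control 616 weighed on these numbers. It gave the lowest value of all 10 arrays in 9 of the 10 genes, and its median distance from the mean of the other controls was -0.88 for the 10 genes and 0.030 for all probes. The medians over all probes are not a like comparison for the 10 genes. All 10 had ratios well above that of the median probe, and the ratios of control 616 covered a narrower range, as given above. Low values on this array are thus not particular to bile acid genes. Without control 616 the median difference of the 10 genes was 0.059, 6 genes were higher and 4 lower, and again none passed the adjusted threshold. With control 616 included, the controls had the larger SD in 10 of 10 genes. The same count was not made without control 616 or over all probes, so it is not particular to these genes.

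**Figure D2:**
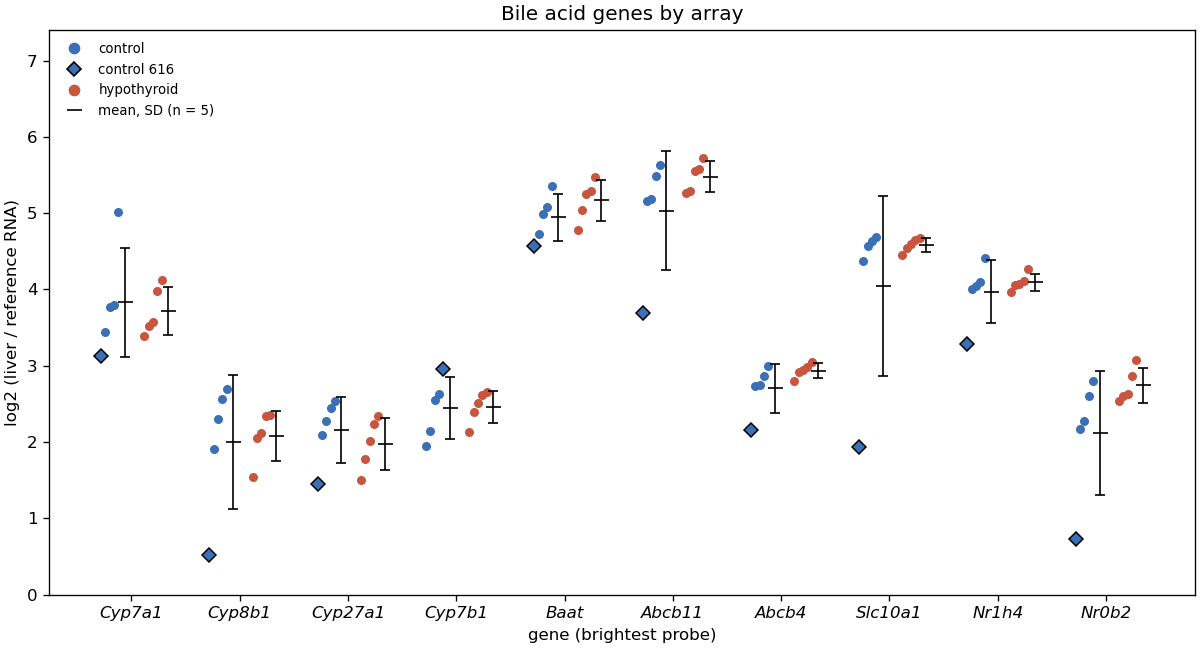
Log2 ratio of liver to reference RNA (vertical axis) of each bile acid gene (horizontal axis) on its brightest probe, with 1 point per array and the mean and SD of each group (n = 5). The diamond, control 616, is the lowest point in all genes but Cyp7b1, where it is the highest at 2.96, and the groups overlap in all 10.

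Cyp7a1, the rate-limiting enzyme of the classic route, was read by 2 probes that gave unlike differences. On the brighter probe the log2 ratio was 3.80, 5.01, 3.44, 3.13 and 3.77 in controls 881, 832, 522, 616 and 391. The hypothyroid values were 3.39, 4.12, 3.57, 3.52 and 3.98 in pups 891, 576, 311, 723 and 626. The groups overlapped widely, and control 832 stood above all other arrays. The difference was -0.11 ± 0.30 (SE, n = 5 and 5; adjusted p = 0.940 in limma), with a 95% interval from -0.78 to 0.56.

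On the dimmer Cyp7a1 probe all 5 hypothyroid arrays lay below all 5 controls. In the same order the controls gave 1.81, 2.64, 1.71, 1.96 and 1.58, and the hypothyroid arrays 1.19, 1.57, 1.52, 1.35 and 1.45. The step between the groups was narrow, from 1.57 to 1.58, and control 832 was again the highest. The difference was -0.53 ± 0.18 (SE), or 1.44-fold lower, with a 95% interval from -0.91 to -0.14. Its unadjusted p of 0.0123 in limma did not survive adjustment over all probes (adjusted p = 0.544), whereas permuting the arrays exactly, two-sided, gave p = 0.00794, the lowest value open to 5 against 5. Groups with all hypothyroid arrays below all controls occurred in 0.986% of all probes, and this was 1 of 13 probes read here, so it was reported as not passing. The 4 differences between a hypothyroid and a control array of the same slide were -0.51, -0.19, -0.63 and -1.08. Without controls 832, 522 and 616, whose pancreas markers were high, the difference was -0.28 (adjusted p = 0.643 in limma). Of the single arrays control 832 moved it most, to -0.35 without it (adjusted p = 0.407 in limma). The difference kept its sign in every alternative run, from -0.62 to -0.096, the latter with the dyes as labelled. It was -0.26 with a normexp offset of 0, -0.32 under median centring and -0.16 with the processed signals of the scanner software, and none of these passed in limma.

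The liver channel read without the reference gave a like picture. There the dimmer probe was 8.16 to 8.70 in the controls and 7.56 to 8.07 in the hypothyroid livers on a log2 signal scale. The difference was -0.61 ± 0.13 (SE; adjusted p = 0.259 in limma), and the groups were again apart. The brighter probe differed by -0.22 ± 0.23 in that channel (adjusted p = 0.827 in limma), with both groups overlapping. On the same array the log2 ratio of the dimmer minus the brighter probe was -2.37 to -1.17 in the controls and -2.56 to -2.05 in the hypothyroid livers, and these ranges overlap. Both probes carry the same RefSeq transcript as their target, and where on it each binds was not analysed here. In the reference channel the dimmer probe was above background on 9 of 10 arrays, and the brighter probe on all 10.

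**Figure D3:**
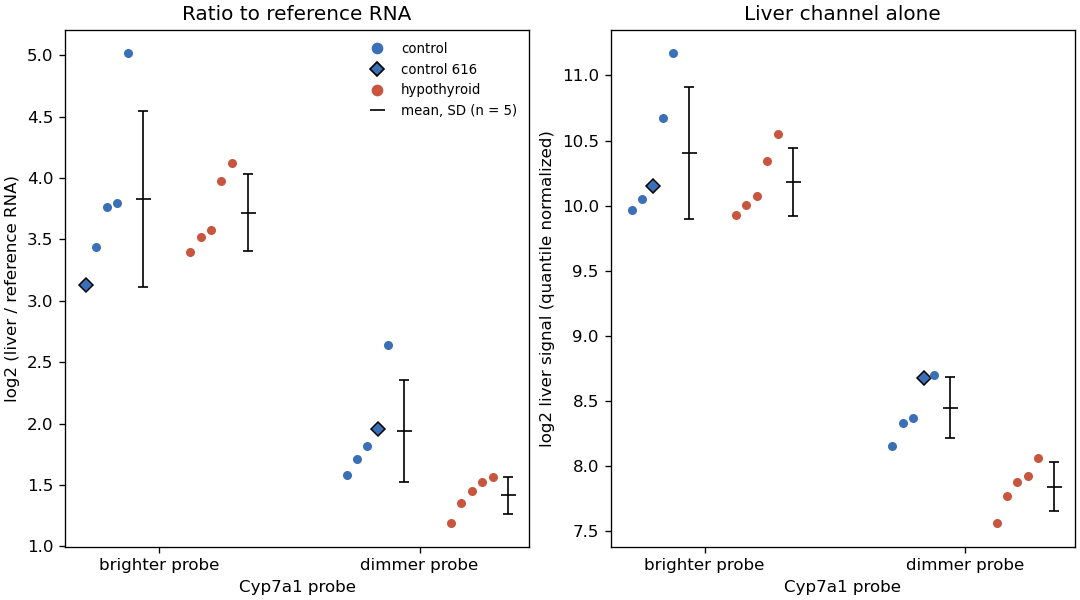
Cyp7a1 on both of its probes (horizontal axis) as the log2 ratio to reference RNA (left) and as the quantile-normalized log2 liver signal (right), with 1 point per array and the mean and SD of each group (n = 5). On the dimmer probe the hypothyroid points, 1.19 to 1.57 as ratios, lie below the control points, 1.58 to 2.64, and on the brighter probe the groups overlap.

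Cyp8b1, the 12-alpha-hydroxylase, showed no difference beyond the spread of the arrays. The controls gave 2.30, 2.70, 2.56, 0.52 and 1.90, in the order of controls 881, 832, 522, 616 and 391 used throughout. Hypothyroid pups 891, 576, 311, 723 and 626 gave 2.05, 2.34, 2.35, 2.12 and 1.54. The difference was 0.084 ± 0.36 (SE; adjusted p = 0.966 in limma) and turned to -0.29 ± 0.19 without control 616. Within the 3 other slides that held both groups the hypothyroid value was lower each time, by differences of -0.21, -0.25 and -0.35, and on the slide of control 616 it was higher by 1.02. The reference signal of this probe was above background on 7 arrays, which limits the ratio.

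Cyp27a1, the sterol 27-hydroxylase that opens the alternative route, was 1 of the 2 genes with a lower hypothyroid mean. Its control values were 2.28, 2.45, 2.53, 1.45 and 2.09. Its hypothyroid values were 1.502, 2.35, 1.78, 2.24 and 2.01, and the groups overlapped. The difference was -0.19 ± 0.22 (SE; adjusted p = 0.838 in limma). Without control 616 it was -0.36 ± 0.16, with 3 of 5 hypothyroid arrays below the 4 controls left, an unadjusted p of 0.0456 and an adjusted p of 0.666 in limma. In the liver channel alone the difference was -0.40 ± 0.29, and without control 616 it was -0.66 ± 0.19 there (unadjusted p = 0.00645, adjusted p = 0.390 in limma). That last setting was chosen after the data were seen. Over all arrays the sign turned with the processed signals of the scanner software, at 0.091, and under median centring, at 0.036. On slides 136 and 139 the difference was -0.76 and -0.78, on the slide with exchanged channels -0.10, and on the slide of control 616 it was 0.56.

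Cyp7b1, the oxysterol 7-alpha-hydroxylase, had nearly equal group means of 2.45 and 2.46. Controls gave 2.63, 2.55, 2.15, 2.96 and 1.95, and hypothyroid arrays 2.61, 2.65, 2.51, 2.13 and 2.40. The hypothyroid values lay inside the range of the controls. The difference was 0.015 ± 0.18 (SE), with a 95% interval from -0.38 to 0.41. It was the only one of the 10 genes for which control 616 was not the lowest array. Its reference signal was above background on 6 of 10 arrays.

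Baat, which conjugates bile acids, had a difference of 0.22 ± 0.16 (SE; adjusted p = 0.757 in limma) on its brighter probe. The control values were 4.99, 5.36, 5.08, 4.56 and 4.73, and the hypothyroid values 4.78, 5.47, 5.05, 5.25 and 5.29. Hypothyroid 576 alone exceeded all controls, and it shared its slide with control 832, the highest of the controls. The dimmer probe gave 0.33 ± 0.31, but its reference signal was above background on only 2 of 10 arrays.

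The difference of 2 genes on 1 array removes only a shift of equal size in both, and 3 such differences were compared. It does not remove a narrower range of ratios, as on control 616. For the entry enzymes of the classic and alternative routes, Cyp7a1 minus Cyp7b1, the mean was 1.38 ± 0.85 in the controls and 1.26 ± 0.33 in the hypothyroid livers (SD, n = 5; exact permutation p = 0.770). Cyp8b1 minus Cyp7a1, which sets 12-alpha-hydroxylation against entry, was -1.83 ± 0.68 and -1.64 ± 0.49 (SD, n = 5; exact permutation p = 0.619). Export against uptake, Abcb11 minus Slc10a1, was 0.99 ± 0.44 and 0.90 ± 0.28 (SD, n = 5; exact permutation p = 0.754). All tests were two-sided, and each p adjusted over the 3 was 0.770. Those values used the brighter Cyp7a1 probe. On the dimmer probe Cyp7a1 minus Cyp7b1 differed by -0.54, hypothyroid minus control (exact permutation p = 0.0556). Cyp8b1 minus Cyp7a1 differed there by 0.61 (exact permutation p = 0.143), and neither p was adjusted. On the brightest probes the differences on control 616 were 0.17, -2.61 and 1.75, the lowest, the lowest and the highest of the controls. For Abcb11 minus Slc10a1 the other controls gave 0.59 to 0.95. Hypothyroid minus control, the 3 stood at -0.13, 0.19 and -0.096 over all arrays. Without control 616 they were -0.43, 0.0014 and 0.094.

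Among the transporters, Slc10a1, the sodium-dependent bile acid uptake carrier, showed how far 1 array could move a mean. The controls gave 4.37, 4.57, 4.69, 1.94 and 4.64. The hypothyroid arrays gave 4.65, 4.68, 4.45, 4.54 and 4.60. Apart from control 616 the arrays of both groups covered the same narrow range. The difference was 0.54 ± 0.46 (SE; adjusted p = 0.779 in limma) with all arrays and 0.019 ± 0.081 without control 616, where the 95% interval ran from -0.16 to 0.20.

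Abcb11, the bile salt export pump, behaved alike. Control values were 5.18, 5.16, 5.63, 3.69 and 5.49, and hypothyroid values 5.28, 5.26, 5.57, 5.73 and 5.55. The difference of 0.45 ± 0.31 (SE; adjusted p = 0.747 in limma) became 0.11 ± 0.13 without control 616, with a 95% interval from -0.16 to 0.39. Hypothyroid 723 was the single array above all controls. In the liver channel alone the difference was -0.043 ± 0.14.

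Abcb4, the phospholipid translocator of the canalicular membrane, had a difference of 0.24 ± 0.14 (SE; adjusted p = 0.727 in limma) on its brighter probe. There the controls gave 2.74, 2.74, 2.999, 2.16 and 2.87 and the hypothyroid arrays 2.91, 2.80, 2.98, 3.05 and 2.94. Without control 616 the difference was 0.0997 ± 0.078. On the dimmer probe control 616 was at 0.75 and the other controls between 2.48 and 2.94, and the difference of 0.43 ± 0.37 became 0.045 ± 0.16 without it.

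Nr0b2 (SHP), the repressor that FXR induces, had the largest mean difference of the 10 genes on the brightest probes. Its controls gave 2.80, 2.27, 2.60, 0.73 and 2.18. The hypothyroid arrays gave 2.63, 3.07, 2.60, 2.87 and 2.54, so 2 of the 5 lay above all controls. The difference was 0.63 ± 0.33 (SE; adjusted p = 0.712 in limma; exact permutation p = 0.0714), with a 95% interval from -0.095 to 1.34. Without control 616 it was 0.28 ± 0.14 (adjusted p = 0.742 in limma; exact permutation p = 0.151). Within slides the difference was 1.81 beside control 616, 0.80 on the slide with exchanged channels, 0.0019 on slide 136 and -0.17 on slide 139.

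Nr1h4 (FXR), the bile acid sensor itself, was nearly level. Control values were 4.01, 4.05, 4.41, 3.29 and 4.09, and hypothyroid values 4.26, 3.96, 4.07, 4.11 and 4.06. The difference was 0.12 ± 0.17 (SE; adjusted p = 0.870 in limma) and turned to -0.046 ± 0.095 without control 616, with a 95% interval from -0.25 to 0.16.

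**Figure D4:**
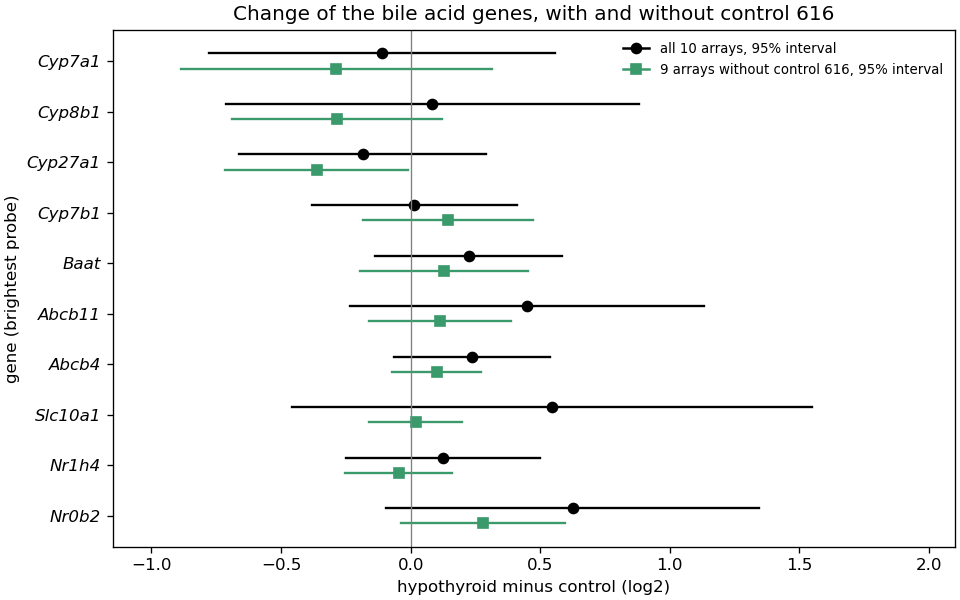
Hypothyroid minus control difference of the log2 ratio (horizontal axis) of each bile acid gene (vertical axis) with its 95% interval, over all 10 arrays (circles) and without control 616 (squares). The intervals over all arrays all include 0, and Slc10a1 moves from 0.54 to 0.019 when that array is left out.

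The slides that held a liver of each group gave a direct look at the same point. On slide 100, with control 616, the hypothyroid array was higher in 9 of the 10 genes, with a median difference of 0.82. On slide 136 it was higher in 3 genes and on slide 139 in 4, with median differences of -0.049 and -0.094. On slide 141, where channels were exchanged, it was higher in 6 genes, with a median of 0.079. A single slide has 1 array per group and gives no test of its own. With slide as a fixed block, control 391 and hypothyroid 723, each alone on a slide, added nothing to the differences. None of the 10 genes then passed the adjusted threshold in limma. The difference was 0.61 ± 0.34 (SE) for Nr0b2 (adjusted p = 0.713 in limma) and 0.70 ± 0.49 for Slc10a1 (adjusted p = 0.739 in limma). For Slc10a1 slide 100 gave 2.66, and the other slides with both groups gave -0.24 to 0.28.

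**Figure D5:**
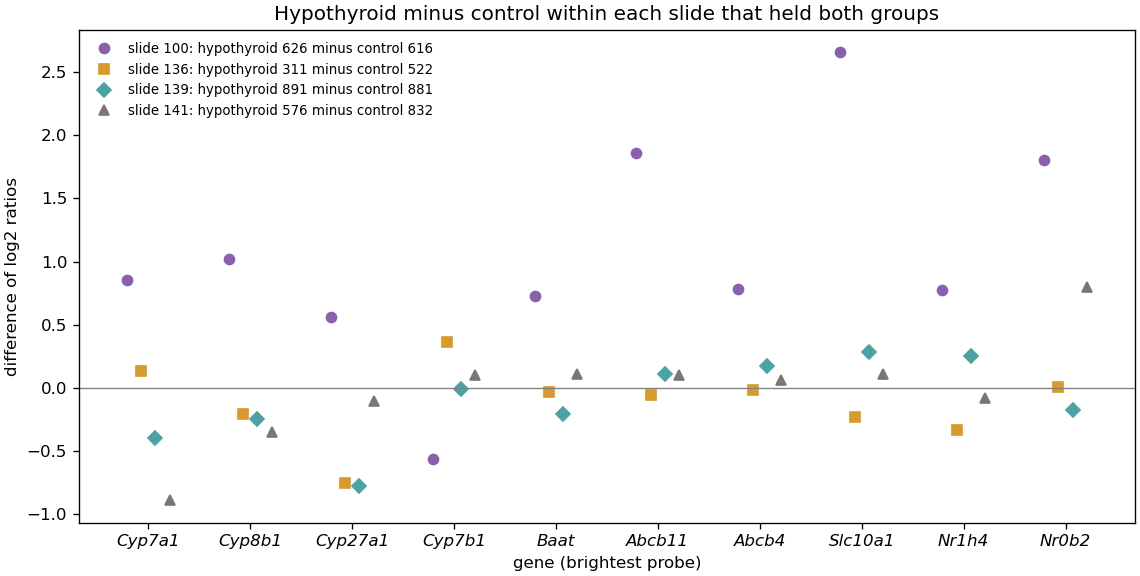
Hypothyroid minus control difference of the log2 ratio (vertical axis) of each bile acid gene (horizontal axis) within each of the 4 slides that held both groups, with 1 point per slide. Slide 100, which carries control 616, lies above the other slides in all genes but Cyp7b1 and reaches 2.66 in Slc10a1.

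Of 53 further genes listed for synthesis, transport and regulation, 49 were tested and none passed the adjusted threshold in limma. At an unadjusted p under 0.05, 4 were higher and 1 lower, beside 7.47% of all probes in either direction. The lower was Ch25h, which makes an oxysterol from cholesterol, at -0.35, and Mafg, a repressor of Cyp8b1 induced by FXR, was among the higher at 0.31. Both were named after their values were seen. The median difference was 0.25 over 16 synthesis genes, 0.28 over 13 transport genes and 0.11 over 20 regulators, and without control 616 these became 0.088, 0.15 and 0.043. In 2 genes, both on the transport list, the groups did not overlap, beside 2.07% of all probes.

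One of these was Abcc3, which exports bile acids across the basolateral membrane of the hepatocyte. Its controls gave 1.03, 0.95, 1.17, 0.51 and 1.26 and the hypothyroid arrays 1.54, 1.95, 2.15, 1.46 and 1.90. Every hypothyroid array was above every control, and control 616 was the lowest. The difference was 0.82 ± 0.17 (SE; unadjusted p = 0.000445, adjusted p = 0.193 in limma) and 0.70 without control 616 (adjusted p = 0.101). A second, dimmer Abcc3 probe differed by 0.15 ± 0.074, and its groups overlapped.

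The other was Ephx1, microsomal epoxide hydrolase. Its controls gave -0.61, 0.50, -1.86, -0.09 and 0.20, a wide spread, and the hypothyroid arrays 0.56, 1.16, 0.58, 0.62 and 0.83. The difference was 1.12 ± 0.37 (SE; adjusted p = 0.539 in limma), the lowest hypothyroid array lying just above the highest control. The second Ephx1 probe gave 1.23 ± 0.38 with the groups apart as well.

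Further steps of synthesis gave small differences. Hsd3b7, the next enzyme after 7-alpha-hydroxylation, differed by 0.41 (adjusted p = 0.660 in limma), Cyp2c70, which makes muricholic acids in mice, by 0.50, Slc27a5, which activates bile acids with coenzyme A, by 0.36, and Akr1d1, the 5-beta-reductase, by -0.11. Of the canalicular pumps, Abcc2 differed by 0.36, and the sterol exporters Abcg5 and Abcg8 by 0.32 and 0.43. Among the regulators, Nr5a2 (LRH-1) differed by 0.29, Hnf4a by 0.30, and Fgfr4 and its partner Klb, the receptor of intestinal FGF15, by 0.13 and 0.066. None of these passed the test, and in each the groups overlapped. Most shrank without control 616: Hsd3b7 to 0.22, Cyp2c70 to 0.24, Slc27a5 to 0.13, Abcc2 to 0.15, Abcg5 to 0.11 and Abcg8 to 0.30. Fgfr4 then stood at 0.038 and Klb at 0.059, and Hnf4a turned to -0.074. Only Nr5a2, at 0.32, and Akr1d1, at -0.20, grew in size. Slco1a1 did not pass the filter on dim probes, and no probe was matched to Slco1b2.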

How the data were processed

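Liver RNA of 5 control and 5 hypothyroid mice was hybridized against universal mouse reference RNA on Agilent 4x44K arrays. The deposited files hold the intensity of each spot and its local background, as the authors obtained it with Agilent Feature Extraction 10.1.1.1. The miRNA tables of the series, with the authors' own F statistics, p-values and fold changes of miRNAs, were not used.

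Median signals were background corrected with normexp (offset 50) and normalized within each array by loess (span 0.2) in limma 3.58.1 (R 4.3.3). Control spots and outlier spots were left out, and spots of 1 probe were averaged. Channels were exchanged on the arrays of control 832 and hypothyroid 576. Probes were kept where at least 4 of 5 arrays of a group had a liver signal over a limit set from the negative control spots, at 3 SDs above their mean after 5% trimming. This left 32056 of 41174 probes. Accessions were matched to RefSeq symbols for 23374 probes. The brightest probe stood for a gene. Groups were compared with limma, Benjamini-Hochberg adjusted over all probes tested, and with exact permutation tests over the 252 assignments of the arrays. The fits were tested on simulated data. The number of arrays limits the precision.

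Named were the 10 genes, Dio1, Thrsp, Me1, a fixed set of pathway genes and those without overlap. Members and lists were chosen with earlier results of these data known. Alternatives covered background correction, normalization, filter, slide, the shrunken F test of the methods, dyes, probes and each array in turn. Figures were drawn with matplotlib.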

Additional observations from a re-analysis of the deposited data

Results flagged for a closer look

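In 7 of 58 groups of 5 arrays, from 29 genes and probes, 1 array lay apart from the rest of its group by Dixon's measure, the gap to the nearest array divided by the range of the group. Chance flags about 1 in 20 independent groups. These groups were not independent, because the same arrays were read for every gene and probe. In 6 of the 7 the array was control 616, as the lowest control, with shares of 0.884 for Slc10a1, 0.835 for Dio1, 0.789 for the dimmer Abcb4 probe, 0.763 for Slc27a5, 0.757 for Abcb11 and 0.721 for Abcc2. The 7th was Abcg8 in the hypothyroid livers, where pup 891 was lowest at 3.11 and the share was 0.775.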

How the results depend on the processing

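Of 29 alternatives 27 tested all 10 genes, and in these none passed the adjusted threshold, although all probes called ranged from 0 to 33, the 33 without control 616, against 3. Of 447 recomputed differences 405 kept their direction and their side of the threshold. Cyp7a1 on its brighter probe turned positive with offset 0 (0.23), with the processed signals (0.24), under median centring (0.15), with the dyes as labelled (0.25), without slide 141 (0.085) and without control 832 (0.19). Cyp27a1 turned to 0.091 with the processed signals and 0.036 under median centring. Cyp7b1 turned to -0.045 without background correction, -0.052 with the processed signals, -0.024 with the dyes as labelled, -0.028 with slide as a fixed block and as the mean within slides, -0.0061 without slide 141, and -0.060, -0.11, -0.023 and -0.033 without control 522, control 391, hypothyroid 891 or hypothyroid 576. Cyp8b1 and Nr1h4 turned to -0.29 and -0.046 without control 616 and to -0.15 and -0.039 without slide 100. Single arrays moved Cyp8b1 between -0.29 and 0.26. In the liver channel alone Abcb11 was at -0.043 and Nr1h4 at -0.045. Among the settings chosen after seeing the data, the liver channel without control 616 gave -0.15 for Abcb11, -0.023 and -0.019 for the Abcb4 probes, -0.34 for Cyp8b1, -0.095 for Nr1h4 and -0.22 for Slc10a1, with Cyp27a1 at -0.66 against -0.19, and leaving out controls 832, 522 and 616 gave -0.022 for Cyp8b1. Leaving out slide 100 was also chosen then. Cyp7a1 minus Cyp7b1 turned to 0.29 with the processed signals, 0.27 with the dyes as labelled and 0.091 without slide 141. Cyp8b1 minus Cyp7a1 turned to -0.17, -0.022 and, in the liver channel without control 616, -0.058. Abcb11 minus Slc10a1 turned to 0.076 in that channel, 0.080 without slide 100 and 0.062 without the 3 controls. Leaving out 1 array at a time, these differences ran from -0.43 to 0.14, 0.0014 to 0.43 and -0.20 to 0.094. The cause was not tested. No paired analysis was possible because the labels give the arrays animal numbers and no replicate numbers shared between groups. The slides that held both groups served as a block, which changed no call of the 10 genes. Reference signals near background limit Cyp7b1, Cyp8b1 and the dimmer Baat and Cyp7a1 probes.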
